A study of Mus musculus with 2 samples.

Results

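The genes described here are 10 mouse genes for components of basement membranes: Col4a1, Col4a2, Lama4, Lamb1, Lamc1, Nid1, Nid2, Hspg2, Sparc and Col18a1. They were given as a list and matched by symbol to the count tables, which held all 10 among 32285 genes. No measured value entered their choice, although the list was drawn up with earlier results of these data known. They were followed in 4 classes of cells (endothelial, mural, fibroblast and cancer) and between 2 libraries.

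The libraries came from tumors of the mouse ovarian cancer line SO, which lacks p53 and carries Hras and myc, grown under the skin of female C57BL/6 mice aged 6 to 8 weeks. One pool held the tumors of 4 wild-type mice (WT) and the other those of 4 tight skin mice (TSK), which carry a duplication within the gene for fibrillin-1, Fbn1, in every cell, while the cancer cells were the same line in both. Each pool was digested with collagenase, hyaluronidase and trypsin, freed of red blood cells and dead cells and made into 1 droplet library (10x Genomics, 3′ ends). Each genotype thus has 1 library, so that the genotypes could not be compared by a test, and genotype, pool and library cannot be told apart.

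Basement membranes are thin sheets of extracellular matrix under epithelia and endothelia and around mural cells (the pericytes and smooth muscle cells of vessel walls). Laminins, each made of an alpha, a beta and a gamma chain, and type IV collagen form separate networks, and nidogens and the heparan sulfate proteoglycan perlecan link these to each other. In vessels both endothelial and mural cells are known to make these components, and laminin with the alpha 4 chain is typical of the vascular basement membrane.

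Col4a1 (gene ENSMUSG00000031502, GRCm38, chr8:11198423-11312826, minus strand) and Col4a2 (ENSMUSG00000031503, chr8:11312805-11449287, plus strand) lie head to head, and in the GENCODE annotation their first exons overlap by 22 bases. The other members lie apart from each other, Lama4 on chr10:38965515-39110188, Lamb1 on chr12:31265234-31329644, Lamc1 on chr1:153218922-153332786, Nid1 on chr13:13437551-13512269, Nid2 on chr14:19751265-19811787, Hspg2 on chr4:137468769-137570630, Sparc on chr11:55394500-55423183 and Col18a1 on chr10:77052178-77166548. All 10 are annotated as protein-coding. RefSeq promoter sequences (GRCm38.p6) were at hand for 7 members, and 4 of them had a stretch of 191 bases clear of annotated exons, running from 250 to 60 bases before the start that RefSeq gives. That start lies downstream of the GENCODE start of each of the 4 genes, so that the Lamb1 stretch ends at the base next to its first GENCODE exon. Of these members, Lamb1 and Hspg2 had their highest level in endothelial cells, Col18a1 in mural cells and Nid1 in fibroblasts, in both libraries. The tests described below did not set Lamb1 apart between any of these classes. They also did not separate endothelial cells from fibroblasts for Hspg2, mural from endothelial cells for Col18a1, or fibroblasts from mural cells for Nid1. All 4 sequences are shown. They run 5′ to 3′ along the gene, and capitals mark matches on either strand to the CCAAT box, to the GC box motif GGGCGG and to the motif TATAAA. A match on the opposite strand reads ATTGG for the first motif and CCGCCC for the second motif.
Lamb1, chr12:31265043-31265233, plus strand: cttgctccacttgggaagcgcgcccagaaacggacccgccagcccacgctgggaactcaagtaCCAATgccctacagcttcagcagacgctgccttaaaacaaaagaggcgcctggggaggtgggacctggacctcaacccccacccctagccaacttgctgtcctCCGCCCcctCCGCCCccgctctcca
Hspg2, chr4:137468553-137468743, plus strand: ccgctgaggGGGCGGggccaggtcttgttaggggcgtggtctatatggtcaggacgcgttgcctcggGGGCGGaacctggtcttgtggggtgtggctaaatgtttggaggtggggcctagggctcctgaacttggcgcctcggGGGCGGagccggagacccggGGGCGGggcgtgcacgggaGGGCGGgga
Col18a1, chr10:77166590-77166780, minus strand: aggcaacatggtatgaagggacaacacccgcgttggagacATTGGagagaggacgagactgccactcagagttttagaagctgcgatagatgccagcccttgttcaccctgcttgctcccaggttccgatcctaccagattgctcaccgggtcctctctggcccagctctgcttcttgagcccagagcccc
Nid1, chr13:13437352-13437542, plus strand: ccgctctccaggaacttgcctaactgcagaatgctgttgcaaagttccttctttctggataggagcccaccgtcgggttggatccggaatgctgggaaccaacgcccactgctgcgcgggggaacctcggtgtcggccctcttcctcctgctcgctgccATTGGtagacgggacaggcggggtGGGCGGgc
GGGCGG occurred 5 times in the Hspg2 stretch, 2 times for Lamb1, 1 time for Nid1 and not in that of Col18a1. CCAAT occurred 1 time each for Lamb1, Col18a1 and Nid1 and not for Hspg2, and none of the 4 held TATAAA. No 2 matches overlapped. Of the stretches of the same length and place in the 32851 sequences of the table, 26.9% held CCAAT, 23.1% GGGCGG and 8.78% TATAAA, on either strand.

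The WT library held 21225411 UMIs in 2332 barcodes and the TSK library 48296765 in 4436 (a UMI, or unique molecular identifier, marks 1 captured RNA molecule). There were 263 barcodes listed in both libraries, and these were left out. Cells with at least 200 genes, at least 500 UMIs and at most 10% mitochondrial UMIs numbered 1442 (WT, median 7659 UMIs) and 2961 (TSK, median 7302 UMIs). Cells were named from raw UMIs of marker genes, which do not include any of the 10 members. A cell that met the rule of several lists was called mixed and left out of the classes, which was the only step taken against doublets, and no doublet caller was run.

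Endothelial cells numbered 50 (WT) and 46 (TSK), mural cells 12 and 31, fibroblasts 127 and 199, and cancer cells 84 and 953. Their UMIs summed to 777518 and 453357, 266587 and 393547, 2896202 and 2320005, and 2979422 and 31484488. All 10 endothelial markers were found in the endothelial cells of both libraries (Pecam1 highest), and the mural, fibroblast and cancer markers came to 99.0, 43.7 and 9.003 CPM there in WT (CPM, UMIs of a gene or list per 1000000 UMIs of the class) and 372.8, 185.3 and 57.4 in TSK. Mural cells held all 9 mural markers in each library (Rgs5 highest), but also fibroblast list genes at 9820 (WT) and 5984 (TSK) CPM, led by Col1a1, while Pdgfra, Lum, Dpt, Pi16 and Clec3b were at 0 in both. Endothelial markers came to 243.8 and 175.3 there, with Cdh5, Tie1, Cldn5 and Ptprb at 0. Fibroblasts held all 10 of their markers, at 42910 and 39370 CPM. Cancer markers came to 7.6 (WT) and 82.8 (TSK) CPM there, and endothelial markers, led by Pecam1, to 239.3 and 106.9. Cancer cells held cancer markers at 3846 and 2247 CPM, led by Lgals7, fibroblast list genes at 592.4 and 436.3, and endothelial markers at 125.5 and 143.5. The part of these other cells' RNA in the values below was not tested. Fbn1 itself stood at 1548 CPM in WT and 1956 in TSK fibroblasts, but a 3′ tag cannot show a duplication inside the gene.

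The 10 members together were more abundant in the endothelial, mural and fibroblast classes than in cancer cells. Levels are given in CPM, which needs no correction for gene length because each molecule is counted once at its 3′ end. The summed members stood at 7934 (WT) and 12529 (TSK) in endothelial cells, 10938 and 12997 in mural cells, 7501 and 10903 in fibroblasts, and 1617 and 1546 in cancer cells. Cancer cells were lowest in both libraries. Mural cells were highest in WT, while in TSK the counting intervals of mural (12643 to 13358) and endothelial cells (12205 to 12859) overlapped, and with each cell weighted the same endothelial cells (12028) stood above mural cells (11439). Sparc alone gave 33.7% and 35.4% of the members' UMIs in endothelial cells (WT and TSK) 44.2% and 46.5% in mural cells, 71.6% and 78.0% in fibroblasts and 32.5% and 16.8% in cancer cells, so that the summed level of fibroblasts was mostly that of Sparc.

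**Figure D1:**
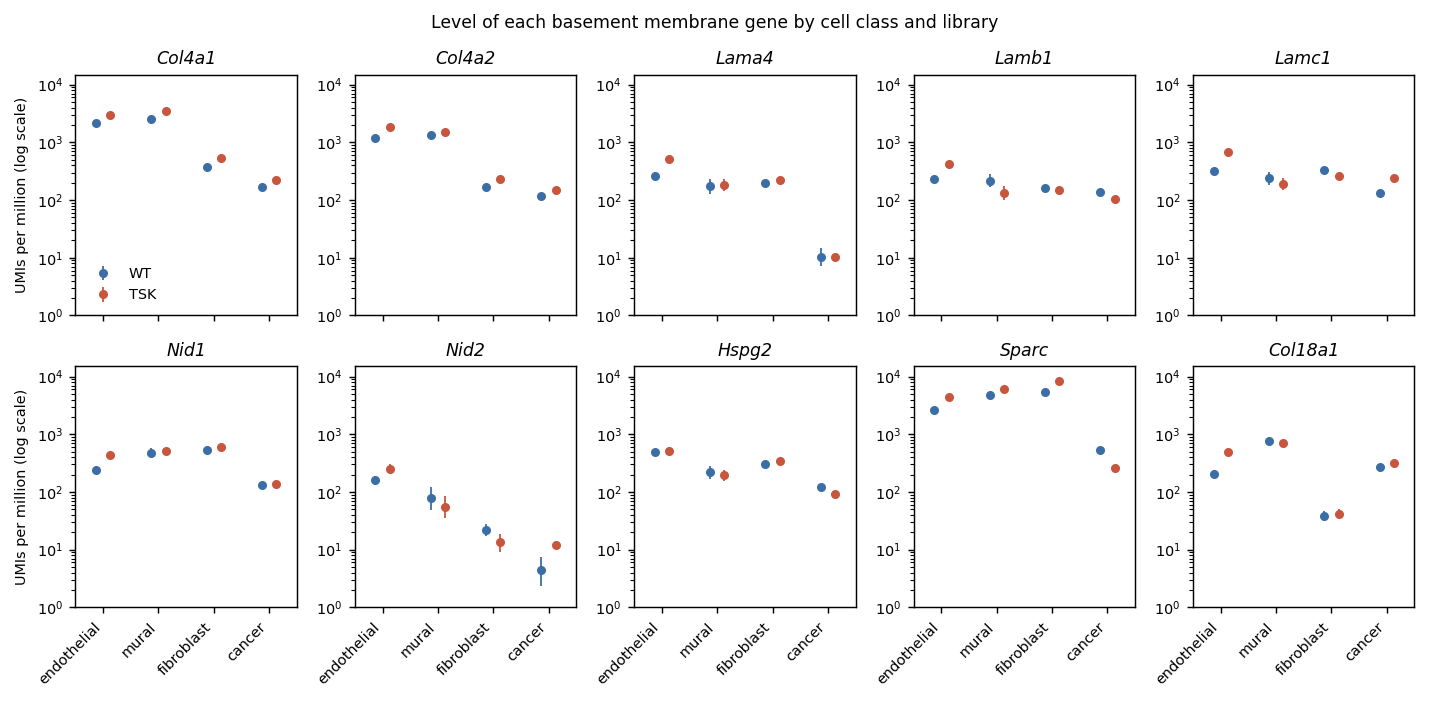
Level of each of the 10 genes (vertical axis, CPM, log scale) in the 4 cell classes of the WT (blue) and TSK (red) library, with bars for exact Poisson 95% intervals that cover counting error only. Col4a1 and Col4a2 sit at 1210 or above in endothelial and mural cells and at 531.9 or below in fibroblasts and cancer cells, and Lama4 and Nid2 fall to 12.1 or less in cancer cells.

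Differences between classes were tested on the 8 sums (2 libraries and 4 classes) with edgeR's quasi-likelihood test, the library being a term of the model, and p-values were adjusted over 11378 genes by the Benjamini-Hochberg method. Only 2 libraries stand behind each class, and sums of a library share its pool. Log2 changes from this model are scaled by TMM, which lowered the median gene of mural over fibroblast by 0.32 relative to plain totals (endothelial over fibroblast by 0.18). Of all genes, 10.2% were called higher and 14.0% lower in endothelial cells than in fibroblasts, 5.42% higher and 8.35% lower in mural cells than in fibroblasts, 6.18% higher and 5.99% lower in endothelial than in mural cells, and 16.2% higher and 20.8% lower in the mean of the 3 stromal classes than in cancer cells. Of the calls of mural over fibroblast, 39.4% were in the higher direction, against 57.4% without TMM. Of those of the stromal mean over cancer, 43.7% were, against 54.5% with DESeq2.

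Of the 10 members, 4 were higher and 2 lower in endothelial cells than in fibroblasts, with a median log2 change of 0.69 against -0.04 over all genes tested. In mural cells against fibroblasts 3 were higher and 1 lower (median -0.39 against -0.07). In endothelial against mural cells 3 were higher and none lower by edgeR's adjusted p (median 0.60 against -0.03), and at an unadjusted p under 0.05 Lamc1 and Lamb1 were also higher, which makes 5, and 1 member, Col18a1, was lower (edgeR, unadjusted p = 0.0075, 0.013 and 0.0071). From plain totals within each library, the Lamb1 change was 0.073 in WT and 1.64 in TSK. That of Lamc1 was 0.42 and 1.80, and that of Col18a1 -1.91 and -0.52. Against cancer cells 9 of the 10 were higher in the stromal mean, all but Col18a1, with a median of 2.27 against -0.12 over all genes. With the upper limits of 10000 UMIs and genes per cell, which left 2 WT mural and 12 WT cancer cells, 4 members were called against cancer cells, the calls of Lamb1, Lamc1, Nid1, Nid2 and Hspg2 being lost at log2 changes of 0.62, 0.57, 1.81, 2.45 and 0.66, and none was called in endothelial against mural cells, where edgeR with all cells had called 3.

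The network-forming collagen chains marked the vessel classes. Col4a1 and Col4a2 encode the alpha 1 and alpha 2 chains, which assemble as 2 alpha 1 chains with 1 alpha 2 chain. Col4a1 stood at 2129 (WT) and 2942 (TSK) CPM in endothelial cells, 2547 and 3448 in mural cells, 369.8 and 531.9 in fibroblasts, and 169.2 and 221.9 in cancer cells. Col4a2 stood at 1210 and 1842, 1369 and 1537, 170.9 and 231.9, and 119.2 and 147.3 in the same order. In each library every vessel value of either gene lay above every fibroblast and cancer value.

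Over fibroblasts, Col4a1 was higher in endothelial cells by a log2 change of 2.26 ± 0.24 (SE, adjusted p = 2.2e-05) and in mural cells by 2.37 ± 0.24 (adjusted p = 5.6e-05). For Col4a2 the changes were 2.67 ± 0.25 and 2.50 ± 0.25 (adjusted p = 1.2e-05 and 5.8e-05). Endothelial and mural cells themselves were not called apart (log2 change -0.11 ± 0.23 for Col4a1, adjusted p = 0.85, and 0.17 ± 0.24 for Col4a2, adjusted p = 0.73). With upper limits of 10000 UMIs and genes per cell, which left 2 WT mural cells, the mural over fibroblast calls of both genes were lost while the changes stayed at 2.20 and 2.70. Looser naming kept the calls at smaller changes, 1.45 and 1.59 for Col4a1 and 1.71 and 1.53 for Col4a2 in endothelial and mural cells. A UMI of Col4a1 was found in 96.0% of WT and 97.8% of TSK endothelial cells and in 1.24% and 2.08% of T and NK cells, which are not known to make it. After thinning of each cell to 500 UMIs they were 56.9% and 70.0%, against 0.0884% and 0.362%, the median depths before thinning being 11906 and 8892 UMIs in endothelial and 6934 and 3265 in T and NK cells.

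Both genes moved together, with a Pearson r of 0.99 over the 8 sums on the log2 scale, the closest of all 45 pairs of members. The sums share libraries and depth, so this is a description. Their UMI ratio nevertheless differed between classes. Col4a2 per Col4a1 was 0.57 (95% interval 0.52 to 0.62) and 0.63 (0.57 to 0.68) in WT and TSK endothelial cells, 0.54 and 0.45 in mural cells, 0.46 and 0.44 in fibroblasts, and 0.70 (0.61 to 0.81) and 0.66 (0.64 to 0.69) in cancer cells. The intervals of cancer cells and fibroblasts did not overlap in either library.

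**Figure D2:**
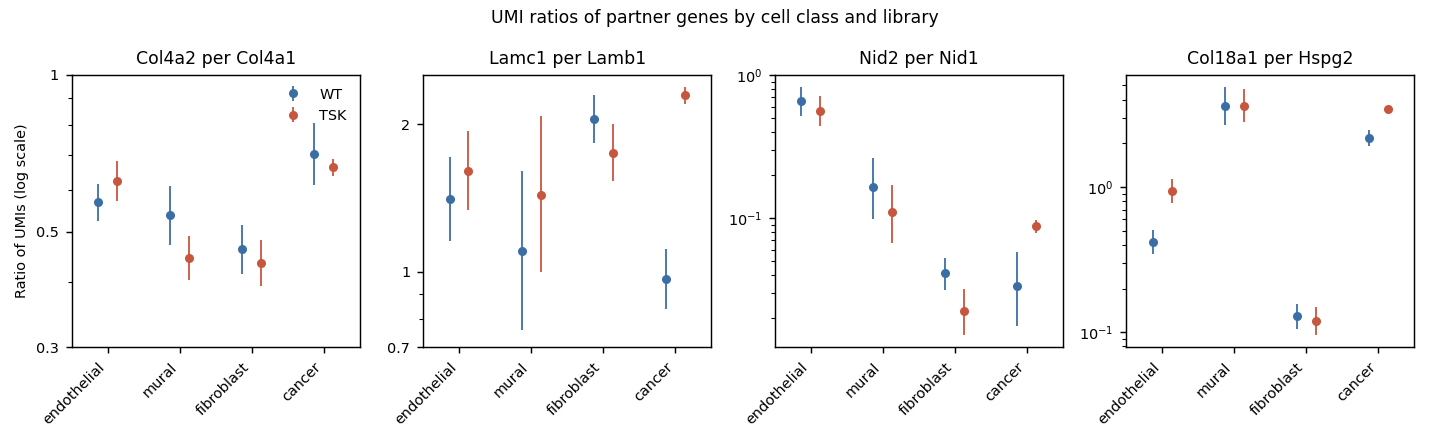
Ratio of the UMIs of 2 partner genes (vertical axis, log scale, a separate range in each panel) by cell class in the WT (blue) and TSK (red) library, with exact 95% intervals for counting error. Col4a2 per Col4a1 stays between 0.44 and 0.70, while Nid2 per Nid1 is highest in endothelial cells and Lamc1 per Lamb1 in cancer cells is 0.97 in WT and 2.29 in TSK.

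Of the laminin chains, Lama4 had the widest gap between the stromal classes and cancer cells, and Lamb1 and Lamc1 the narrowest. Lama4, the alpha 4 chain of vascular laminins, stood at 266.2 (WT) and 511.7 (TSK) CPM in endothelial cells, 172.6 and 180.4 in mural cells, 199.9 and 221.6 in fibroblasts, and 10.4 and 10.3 in cancer cells. That gap was the widest of all members by the model (log2 change 4.69 ± 0.31, adjusted p = 1.9e-06). Over mural cells it was higher in endothelial cells by 1.22 ± 0.30 (adjusted p = 0.019). That call was lost with plain totals (1.09), with looser naming (0.58), with 1 more marker per name (1.08) and with the upper limits (1.65). Over fibroblasts it was not called (0.59 ± 0.28, adjusted p = 0.17).

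Lamb1 and Lamc1 encode the beta 1 and gamma 1 chains, which are shared by most laminins. Lamb1 stood at 228.9 and 419.1 CPM in endothelial, 217.6 and 134.7 in mural, 161.2 and 150.4 in fibroblast and 136.3 and 106.0 in cancer cells. Lamc1 stood at 321.5 and 672.8, 240.1 and 193.1, 330.1 and 262.9, and 131.6 and 242.9. Neither gene was called between any pair of the 3 stromal classes, and both were higher in the stromal mean than in cancer cells, each by a log2 change of 0.91 (SE 0.28 and 0.32, adjusted p = 0.022 and 0.041). Both of these calls were lost with plain totals, with looser naming and with the upper limits. In the WT library the highest class for Lamc1 was fibroblasts and in the TSK library endothelial cells. The WT counting intervals of these classes overlapped (309.5 to 351.7 in fibroblasts and 282.9 to 364.0 in endothelial cells).

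The chains did not keep a fixed proportion. Lama4 per Lamb1 ranged from 0.79 to 1.47 in the 3 stromal classes and was 0.076 (WT) and 0.097 (TSK) in cancer cells, so that beta 1 UMIs were there with hardly any of alpha 4. Of the alpha chains fixed in the list of related genes, Lama5 stood at 48.3 and 27.9 CPM in cancer cells, and Lama2 at 1.68 and 3.65. Lama5 was higher in cancer cells than in the stromal mean (log2 change of the stromal mean over cancer -2.25, adjusted p = 0.0043), although endothelial cells alone held it at 47.6 and 48.5 CPM.

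Nidogens split by class. Nid1 and Nid2 encode the nidogens, which bind the laminin gamma 1 chain and type IV collagen. Nid1 stood at 243.1 (WT) and 443.4 (TSK) CPM in endothelial cells, 480.1 and 508.2 in mural cells, 536.9 and 594.4 in fibroblasts, and 130.6 and 138.0 in cancer cells. Nid2 stood at 159.5 and 249.3, 78.8 and 55.9, 22.1 and 13.4, and 4.36 and 12.1. Fibroblasts were thus the highest class for Nid1 and endothelial cells for Nid2, in both libraries. For Nid1 the counting intervals of mural cells and fibroblasts overlapped in WT (400.6 to 570.9 and 510.6 to 564.3) and TSK (440.2 to 583.7 and 563.4 to 626.6). With each cell weighted the same, WT mural cells (530.8) stood above WT fibroblasts (527.7). The mural over fibroblast change of Nid1 was not called (edgeR, -0.57 ± 0.27, adjusted p = 0.22).

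In endothelial cells against fibroblasts Nid1 was lower by a log2 change of -1.01 ± 0.27 (adjusted p = 0.018) and Nid2 higher by 3.21 ± 0.46 (adjusted p = 0.00026). Nid2 was also higher in endothelial than in mural cells (1.73 ± 0.48, adjusted p = 0.035), and its mural over fibroblast change of 1.49 ± 0.51 was not called (adjusted p = 0.082). The Nid1 call was lost with plain totals (-0.81), looser naming (-0.91) and the upper limits (-1.57), and the endothelial over mural call of Nid2 with plain totals (1.59), looser naming (1.63), 1 more marker per name (1.74) and the upper limits (2.07). Nid2 per Nid1 was 0.66 (0.52 to 0.83) and 0.56 (0.44 to 0.71) in WT and TSK endothelial cells and 0.041 (0.032 to 0.053) and 0.022 (0.015 to 0.032) in fibroblasts.

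Of the heparan sulfate proteoglycans, Hspg2 was highest in endothelial and Col18a1 in mural cells in both libraries, although only Hspg2 was called between these classes. Hspg2 encodes perlecan, and Col18a1 encodes collagen XVIII, whose C-terminal part is endostatin. Hspg2 stood at 492.6 (WT) and 520.6 (TSK) CPM in endothelial cells, 217.6 and 193.1 in mural cells, 300.7 and 345.3 in fibroblasts, and 123.5 and 91.7 in cancer cells. Col18a1 stood at 207.1 and 489.7, 780.2 and 701.3, 38.7 and 41.4, and 267.5 and 316.3. Col18a1 was the only member whose cancer cell values lay above its fibroblast values in both libraries.

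Hspg2 was higher in endothelial than in mural cells (log2 change 1.44 ± 0.28, adjusted p = 0.0045) and lower in mural cells than in fibroblasts (-1.03 ± 0.27, adjusted p = 0.026). Both calls were lost with looser naming and with the upper limits, and the second also with plain totals (-0.70). Col18a1 was higher than in fibroblasts by 2.79 ± 0.34 in endothelial cells (adjusted p = 7.8e-05) and by 3.84 ± 0.35 in mural cells (adjusted p = 3.3e-05). With looser naming the endothelial change was 0.90 and was not called, and the mural change was 1.57. Its endothelial over mural change was -1.05 ± 0.32 (adjusted p = 0.056), and that of the stromal mean over cancer -0.30 ± 0.25 (adjusted p = 0.37). Col18a1 per Hspg2 was 3.59 and 3.63 in mural cells, 2.17 and 3.45 in cancer cells and 0.13 and 0.12 in fibroblasts, WT and TSK.

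Sparc was the most abundant member in each class but TSK cancer cells, where Col18a1 was. Sparc encodes osteonectin, a matricellular protein that binds collagens, type IV collagen among them. It stood at 2676 (WT) and 4438 (TSK) CPM in endothelial cells, 4835 and 6045 in mural cells, 5371 and 8510 in fibroblasts, and 524.9 and 259.8 in cancer cells. It was lower in endothelial cells than in fibroblasts (log2 change -1.21 ± 0.32, adjusted p = 0.016) and higher in the stromal mean than in cancer cells (3.82 ± 0.34, adjusted p = 9.5e-06). The first call was lost with plain totals (-1.02), with DESeq2 (-1.18), with stricter naming (-1.31), with looser naming (-0.89) and with the upper limits (-0.75). Among the members, its pattern over the 8 sums was nearest to that of Nid1 (r 0.96) and Lama4 (r 0.91).

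The classes held different shares of the members' RNA in the 2 libraries, which also differed in how many cells of each class they held and how deep these were. In the WT library 46.5% (46.1% to 47.0%, exact binomial interval) of the members' UMIs were in fibroblasts, 13.2% in endothelial, 6.25% in mural and 10.3% in cancer cells. In the TSK library the shares were 23.6%, 5.31%, 4.78% and 45.5% (45.2% to 45.8%). These classes held 16.97%, 4.55%, 1.56% and 17.5% of all UMIs in WT and 5.08%, 0.99%, 0.86% and 69.0% in TSK, so that cancer cells held a smaller share of the members' UMIs than of all UMIs in both libraries. Mixed cells held 18.4% and 15.1% of the members' UMIs, and cells with endothelial and mural markers were the most frequent kind in WT (13), while in TSK these (14) came after cells with cancer and macrophage (24) and with fibroblast and cancer markers (18).

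**Figure D3:**
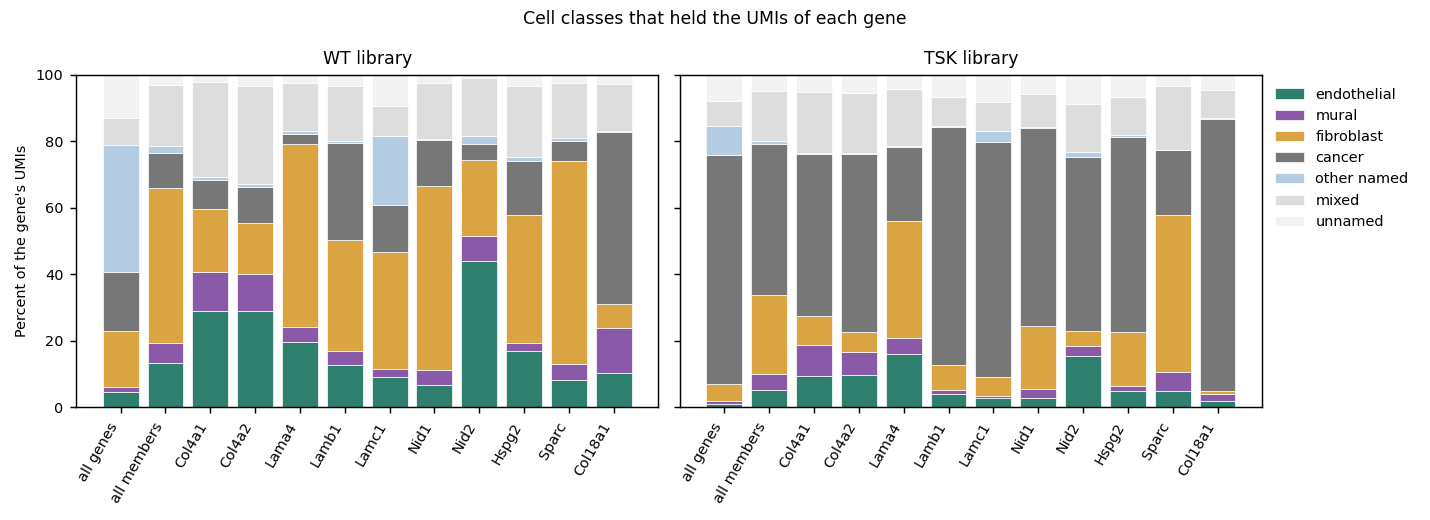
Percent of each gene's UMIs (vertical axis) held by each class of cells in the WT (left) and TSK (right) library, beside the same for all 10 members and for all genes. Fibroblasts hold 60.7% of the WT and 47.2% of the TSK Sparc UMIs, while cancer cells hold 51.7% and 81.8% of those of Col18a1.

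By gene, the largest WT share of Nid2 was in endothelial cells (44.1%), which made up 3.47% of the WT cells. For Sparc (60.7%), Nid1 (55.2%) and Lama4 (55.1%) it was in fibroblasts, and for Col18a1 (51.7%) in cancer cells. In the TSK library cancer cells, 32.2% of the cells but 69.0% of all UMIs, held the largest share of 8 members. Only the shares of Col18a1 (81.8%), Lamb1 (71.5%) and Lamc1 (70.5%) lay above that 69.0%. Those of Col4a1, Col4a2, Nid1, Nid2 and Hspg2 lay below it, between 48.7% and 59.6%. Fibroblasts held the largest TSK share of Sparc (47.2%) and Lama4 (35.3%). Lamc1 differed from the rest, with 20.6% (WT) and 3.52% (TSK) of its UMIs in T and NK cells, macrophages and the other named cells. Those cells held 38.2% of all UMIs in WT and 8.61% in TSK. The next highest member there was Nid2, with 2.49% and 1.51%.

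Between genotypes, the summed members were at a higher level in the TSK library in the endothelial cells and fibroblasts and about level in cancer cells. The log2 ratio of TSK over WT was 0.66 (exact conditional 95% interval 0.61 to 0.71) in endothelial cells, 0.25 (0.18 to 0.31) in mural cells, 0.54 (0.51 to 0.57) in fibroblasts and -0.06 (-0.11 to -0.02) in cancer cells. These intervals cover counting error only and not the spread between mice, pools or libraries. The median gene with at least 50 UMIs in the class was itself at 0.32, 0.24, 0.26 and 0.17 in the same order, so relative to it the summed members stood at 0.34, 0.01, 0.28 and -0.23. In mural cells 1 TSK cell held 24.8% of the members' UMIs, and without the top cell of each library the ratio was -0.0054. In fibroblasts the ratio without Sparc was 0.17, and with looser naming 0.016.

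**Figure D4:**
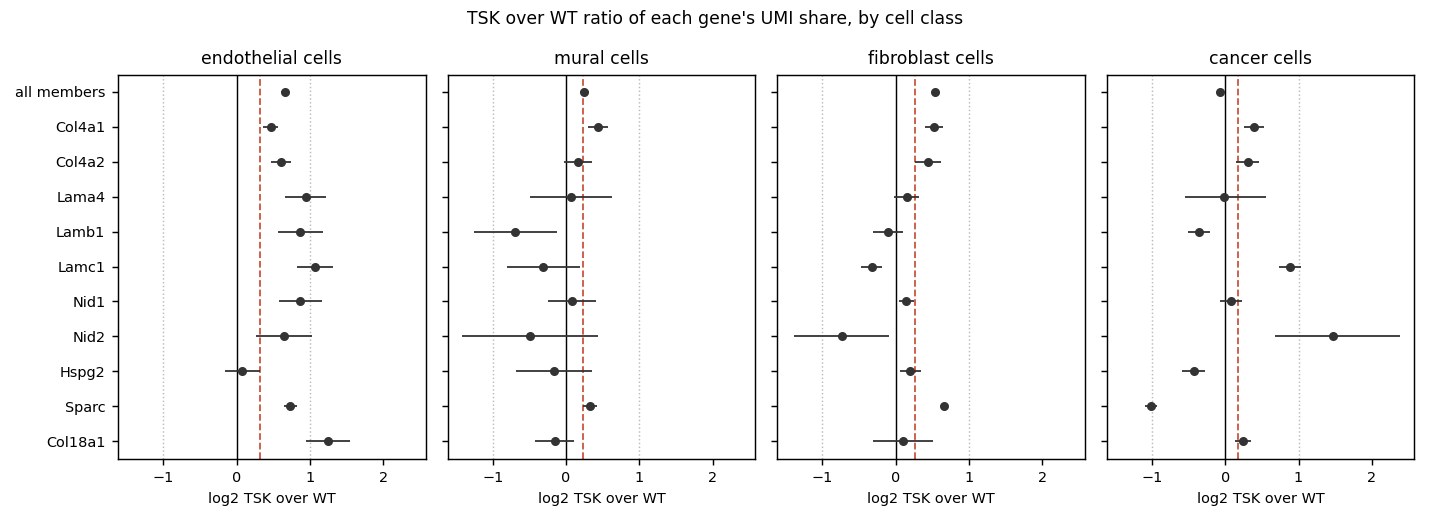
Log2 ratio of TSK over WT of each gene's share of the class's UMIs (horizontal axis) in 4 classes, with exact conditional 95% intervals for counting error only. The dashed red line marks the median over all genes that reached 50 UMIs, the dotted lines a 2-fold difference and the black line no difference. In endothelial cells all 10 points lie above 0, and in cancer cells Nid2 and Lamc1 lie highest and Sparc lowest.

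In endothelial cells all 10 members were higher in the TSK than in the WT library, and 9 of the intervals lay above 0. The median member was at 0.80, against 0.32 for the 3571 genes with at least 50 UMIs, of which 71.2% were higher in TSK. Col18a1 (log2 ratio 1.24, 0.94 to 1.54) and Lamc1 (1.07, 0.82 to 1.31) passed a 2-fold difference, which 10.4% of all genes passed upward and 4.28% downward. Lama4 (0.94), Lamb1 (0.87), Nid1 (0.87), Sparc (0.73), Nid2 (0.64), Col4a2 (0.61) and Col4a1 (0.47) followed, and Hspg2 stood at 0.08 (-0.16 to 0.32). Requiring 1 more marker per name brought Lamc1 to 0.98, and stricter naming brought Col18a1 to 0.84, both under 2-fold. Relative to the median gene, Col18a1 stood at 0.92, Lamc1 at 0.75 and Hspg2 at -0.24, and no member passed 2-fold.

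The endothelial classes of the libraries also differed in their cells. A UMI of at least 1 of the tip cell genes Apln, Esm1, Angpt2, Cxcr4, Dll4 and Pgf, which mark the leading cells of vessel sprouts, was found in 31 of 50 WT cells (62.0%) and 45 of 46 TSK cells (97.8%), at median depths of all endothelial cells of 11906 and 8892 UMIs. In WT the summed members stood at 9291 CPM in cells with such a UMI and 4110 in the 19 without, and Nid2 at 212.6 and 9.82. Among cells with a tip cell UMI the ratio of TSK over WT was 0.44 (0.38 to 0.49) for the summed members, 0.92 for Col18a1, 0.76 for Lamc1 and -0.11 for Hspg2. The WT cells with such a UMI were also deeper (median 16854 UMIs against 9347 without). The part of makeup and of depth in these values was not tested.

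**Figure D5:**
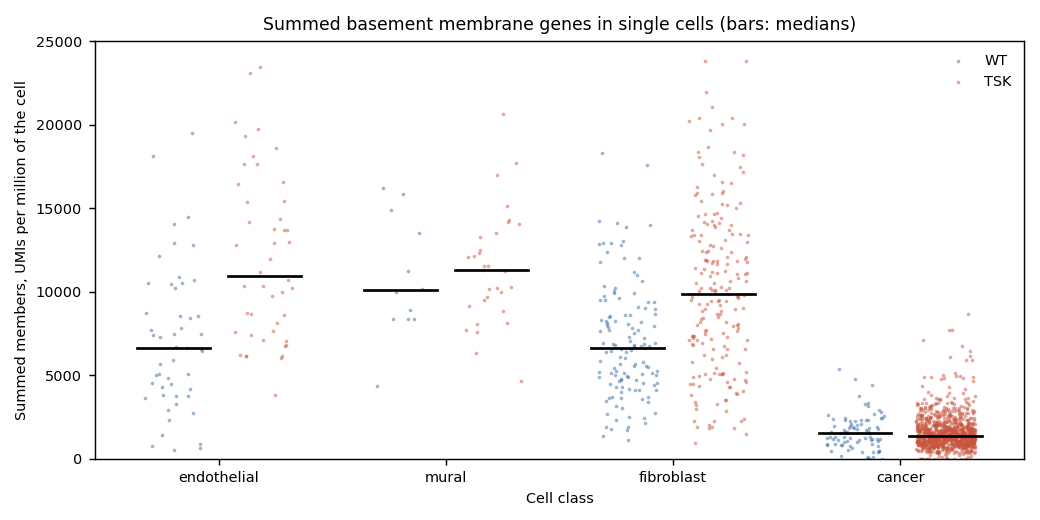
Summed level of the 10 genes in each cell (vertical axis, CPM, here per 1000000 UMIs of the cell) by class in the WT (blue) and TSK (red) library, with a bar at the median. The ranges of the libraries overlap in each class, with medians of 6611 (WT) and 10924 (TSK) in endothelial cells and 6638 and 9879 in fibroblasts.

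Single cells of each class varied widely and the libraries overlapped. The summed members ranged from 510.4 to 19474 CPM (median 6611) in WT endothelial cells and from 3830 to 23425 (median 10924) in TSK ones. In mural cells the medians were 10083 and 11266, in fibroblasts 6638 and 9879, and in cancer cells 1515 and 1351. Cells are not replicates of a genotype, so these ranges describe 2 libraries only.

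In fibroblasts Sparc (log2 ratio 0.66, 0.63 to 0.69), Col4a1 (0.52, 0.41 to 0.64) and Col4a2 (0.44, 0.26 to 0.62) had the highest ratios and Nid2 (-0.73) and Lamc1 (-0.33, -0.48 to -0.18) the lowest. The leading ratios turned under an alternative, Sparc to -0.010 with looser naming and Col4a1 to -0.17 with the upper limits, and that of Col4a2 was 0.18 with the upper limits and also relative to the median gene. No member passed 2-fold in either direction, as did 7.02% (higher) and 2.82% (lower) of 7966 genes, and the median member stood at 0.15 against 0.26. Nid2 rested on 64 WT and 31 TSK UMIs. In mural cells none of the 9 members with at least 50 UMIs passed 2-fold, while 9.29% of 2197 genes did upward and 6.10% downward. The mural ratios of Col4a1 (0.44) and Sparc (0.32) had intervals above 0 and that of Lamb1 (-0.69) below it, on 12 WT and 31 TSK cells. With looser naming, which left 6 WT and 10 TSK mural cells, the Lamb1 ratio was 0.15.

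Within the TSK fibroblasts, Col4a1 was unevenly spread. Cells with a UMI of Clec3b, Pi16 or Cd34, genes of adventitial fibroblasts, numbered 175 and held Col4a1 at 602.9 CPM, against 127.1 in the 24 without. Clec3b and Pi16 are also on the list that named fibroblasts, so the naming itself favored cells with such a UMI. For Sparc the values went the other way, 8170 and 10449. In WT only 3 of 127 fibroblasts lacked such a UMI, and Col4a1 went the other way there, 365.5 with and 832.5 without.

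In cancer cells the members parted. Nid2 was higher in TSK by a log2 ratio of 1.47 (0.68 to 2.39) and Lamc1 by 0.88 (0.74 to 1.03), Col4a1, Col4a2 and Col18a1 were higher by 0.39, 0.31 and 0.24, and Lamb1, Hspg2 and Sparc were lower (-0.36, -0.43 and -1.01, -1.09 to -0.94). Nid2 and Sparc passed 2-fold, as did 9.93% of 12501 genes upward and 6.88% downward, and the median member was at 0.16 against 0.17. Nid2 rested on 13 UMIs in WT, 53.8% of them in 1 cell, so its ratio without the top cells was 2.52. Lamc1 per Lamb1 was 0.97 (0.84 to 1.11) in WT and 2.29 (2.20 to 2.39) in TSK cancer cells, the widest gap between libraries among the 4 classes.

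The Sparc ratio in cancer cells moved with naming. With stricter naming, which kept 8 WT and 108 TSK cancer cells, it was 0.42 in place of -1.01, and with looser naming -0.89. One WT cell held 10.8% of the WT Sparc UMIs of the class, and without the top cells the ratio was -0.90. With the barcodes found in both libraries kept it was -0.83. Fbn1 (log2 ratio -1.13) and the fibroblast marker list (592.4 and 436.3 CPM) were also lower in TSK cancer cells, and their part in the Sparc ratio was not tested. On those 8 WT cells stricter naming also turned the ratios of Lamc1 (-0.52 in place of 0.88), Col4a1 (-0.53), Col4a2 (-0.52) and Hspg2 (0.11). Over the alternatives other than stricter naming, the Col4a1 ratio ranged from 0.088 to 2.09. That of Col4a2 then ranged from 0.11 to 0.75 and that of Col18a1 from 0.073 to 0.98.

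Related genes were read from lists by role. Of 22 other chains and components, 15 could be tested, of which 3 were higher and 7 lower in endothelial cells than in fibroblasts (median log2 change -1.70 against -0.04 over all genes, of which 10.2% were higher and 14.0% lower). Tinagl1 and Sparcl1 were higher in both vessel classes (4.01 and 4.08 for Sparcl1, a relative of Sparc, in endothelial and mural cells), and Fbln1, the gene of the matrix protein fibulin-1, and Smoc2 lower in both. Fbln1 had no UMI in endothelial cells of either library and stood at 299.4 and 291.4 CPM in fibroblasts. The type IV chains Col4a4, Col4a5 and Col4a6 had no more than 2.21 CPM in any vessel class of a library, while Col4a5 and Col4a6 reached 42.6 and 18.8 in WT and 17.8 and 6.10 in TSK cancer cells.

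Folding and crosslinking genes were mostly lower in endothelial cells than in fibroblasts. All 13 in the list were tested, with 2 higher and 8 lower in endothelial cells than in fibroblasts and 1 higher and 3 lower in mural cells by edgeR's adjusted p. Their medians were -1.23 and -0.42, against -0.04 and -0.07 over all genes, of which 10.2% and 5.42% were higher and 14.0% and 8.35% lower. P3h2 (listed under its older symbol Leprel1), which encodes a prolyl 3-hydroxylase that acts on type IV collagen, stood at 37.3 (WT) and 77.2 (TSK) CPM in endothelial cells, 33.8 and 27.9 in mural cells, 3.45 and 5.60 in fibroblasts and 4.03 and 4.03 in cancer cells. It was higher than in fibroblasts by a log2 change of 3.37 in endothelial cells (adjusted p = 0.00015) and 2.39 in mural cells (adjusted p = 0.0092). Serpinh1, the collagen chaperone HSP47, stood at 533.7 and 780.8 CPM in endothelial cells and 1346 and 1624 in fibroblasts (log2 change -1.43, adjusted p = 0.0017). Pxdn, the peroxidase that crosslinks type IV collagen, was the other gene that was higher in endothelial cells (0.92, adjusted p = 0.028, with 187.8 and 202.9 CPM against 78.0 and 99.6). Colgalt1, which adds galactose to collagen, passed 2-fold higher in TSK in endothelial cells (log2 ratio 1.57), mural cells (1.05) and fibroblasts (1.59). In endothelial cells 3 of the 9 list genes with at least 50 UMIs passed, the others being Plod1 (1.21) and P3h2 (1.05). Of all genes, 10.4% passed upward in endothelial cells, 9.29% in mural cells and 7.02% in fibroblasts.

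Receptors leaned to the vessel classes. All 12 in the list were tested, and 8 were higher and 3 lower in endothelial cells than in fibroblasts (median 2.16) and 6 higher and none lower in mural cells by edgeR's adjusted p (median 1.96). Over all genes 10.2% were higher and 14.0% lower in endothelial cells (median -0.04) and 5.42% higher and 8.35% lower in mural cells (median -0.07). Itga1, the alpha chain of a collagen receptor, stood at 225.1 and 194.1 CPM in endothelial, 1099 and 897.0 in mural and 23.5 and 32.3 in fibroblast cells. Itga6, the alpha chain of laminin receptors, stood at 342.1 and 304.4, 120.0 and 221.1, and 0.69 and 5.60.

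Of the 10 proteases and inhibitors, 1 was higher and 5 lower in endothelial cells than in fibroblasts and 1 higher and 3 lower in mural cells. The shares of all genes were 10.2% and 14.0% in endothelial and 5.42% and 8.35% in mural cells. Mmp2, a gelatinase that also cleaves type IV collagen, stood at 658.1 and 675.4 CPM in fibroblasts and at 40.7 or less in both vessel classes. In TSK endothelial cells 4 of the 7 genes with at least 50 UMIs passed 2-fold higher, Timp1, Plat, Ctsb and Adamts4, and 1 lower, Timp3 (-1.29), against 10.4% and 4.28% of all genes. Timp3, an inhibitor that binds to the matrix, was also 2-fold or more lower in TSK mural (-2.29) and cancer cells (-3.97). In TSK fibroblasts Timp3 was 2-fold higher (1.03). Its cancer cell levels were 37.9 CPM in WT and 2.41 in TSK. Of all genes, 6.10% in mural and 6.88% in cancer cells passed 2-fold downward, and 7.02% in fibroblasts upward.

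The genes most like the summed members were looked for among 10396 genes with at least 200 UMIs over the 8 sums, by Pearson r of log2(CPM + 1) over the 8 sums. The nearest 10 were Msrb3, Rhoj, Tgfb1i1, Ifnar2, Peli2, Bst2, Sec24d, Scp2, Rftn1 and Wtip, with r from 0.97 to 0.99. Sec24d, at rank 7 of these, encodes a coat protein of vesicles leaving the endoplasmic reticulum and had r 0.97. These are the highest of 10396 values over only 8 sums, which share 2 libraries, so the list is a description.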

How the data were processed

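The authors made the deposited counts (UMIs per gene and cell barcode) with Cell Ranger on mm10, given as version 7.1.0 in the file headers and 7.1.1 in the submitters' processing notes. The paper's upper limits per cell were tried as an alternative. Cells with at least 200 genes, 500 UMIs and at most 10% mitochondrial UMIs were kept, and barcodes found in both libraries removed. Cells were named by how many distinct marker genes had a UMI (5 of 10 endothelial, 4 of 9 mural, 3 of 9 cancer, and 6 of 10 fibroblast markers with at least 30 marker UMIs per 10000), thresholds set after marker counts had been seen. The members and gene lists were chosen with earlier results of these data known. Named were all members, related genes with at least 50 UMIs over the 4 classes, and the 10 genes most like the summed members.

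UMIs were summed per class and library. Classes were compared with edgeR 4.0.16 (R 4.3.3; class and library as terms, TMM, 3 residual degrees of freedom, Benjamini-Hochberg threshold 0.05), with marker genes left out and DESeq2 1.42.0 as an alternative, after a trial on simulated data. Between genotypes, genes with at least 50 UMIs were called past 2-fold, with no test. Poisson, binomial and ratio intervals (95%, scipy 1.17.1) cover counting error only. Alternatives changed cell limits, naming, scaling and filters; 1 more marker per name was chosen after seeing the data. Numpy 2.4.6, pandas 2.3.3 and matplotlib 3.10.9 (Python 3.11.15) were also used.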

Additional observations from a re-analysis of the deposited data

Results flagged for a closer look

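For 5 members the counting intervals of the TSK over WT ratio lay on opposite sides of 0 in different classes. With 1 library per genotype the difference between classes was not tested. Lamb1 had log2 ratios of 0.87 in endothelial, -0.69 in mural and -0.36 in cancer cells, and the mural ratio was 0.15 with looser naming. Lamc1 had 1.065 in endothelial, -0.33 in fibroblast and 0.88 in cancer cells, the last being -0.52 with stricter naming. Nid2 had 0.64 in endothelial, -0.73 in fibroblast and 1.47 in cancer cells, the fibroblast ratio being -0.10 with looser naming and -1.49 with stricter naming. Hspg2 had 0.20 in fibroblasts and -0.43 in cancer cells, but the first was -0.41 with looser naming and -0.058 relative to the median gene, and the second 0.11 with stricter naming. Sparc had 0.73 in endothelial, 0.32 in mural and 0.66 in fibroblast cells and -1.015 in cancer cells, the fibroblast ratio being -0.010 with looser naming and the cancer cell ratio 0.42 with stricter naming.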

How the results depend on the processing

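With upper limits of 10000 UMIs and genes per cell, which left 2 WT mural cells, the summed TSK over WT ratio was 0.73 in endothelial, -0.23 in mural, 0.61 in fibroblast and 0.090 in cancer cells. Members called numbered 0 lower in endothelial and 1 higher and 0 lower in mural cells against fibroblasts, 0 higher in endothelial against mural cells and 4 higher in the stromal mean against cancer cells. Past 2-fold in TSK were 6 members higher in endothelial cells, 1 lower in mural cells, and 2 higher and 2 lower in cancer cells. The WT and TSK shares of the members' UMIs were then 32.9% and 16.6% (endothelial), 3.07% and 6.42% (mural), 21.7% and 39.0% (fibroblast) and 2.12% and 7.75% (cancer).

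Stricter naming left 1 mural cell in each library and so gave no mural or stromal mean value. It gave 1 member lower in endothelial cells than in fibroblasts, summed ratios of 0.74 in fibroblasts and 0.13 in cancer cells, 0.42 for Sparc in cancer cells, 0 members 2-fold lower in TSK cancer cells, and shares of 4.53% and 1.31% (endothelial), 7.33% and 8.27% (fibroblast) and 0.21% and 1.10% (cancer). Looser naming left 6 WT and 10 TSK mural cells. It gave 0 members lower in endothelial or in mural cells than in fibroblasts and 0 higher in endothelial than in mural cells. Its summed ratios were 0.46 (endothelial), 0.44 (mural) and 0.016 (fibroblast), with 1 member 2-fold higher in TSK endothelial cells, 1 in fibroblasts and 0 lower in cancer cells, and shares of 20.9% and 9.03% (endothelial), 0.99% and 0.91% (mural), 65.0% and 41.3% (fibroblast) and 45.9% (TSK cancer). With 1 more marker per name, 1 member was higher in endothelial than in mural cells and 1 was 2-fold higher in TSK endothelial cells, the summed ratios were 0.50 (endothelial) and -0.16 (cancer), and shares were 6.23% (TSK endothelial), 5.20% (TSK mural), 45.2% (WT fibroblast), 8.98% (WT cancer) and 29.4% (TSK cancer).

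Plain totals gave 0 members lower in endothelial and 0 in mural cells than in fibroblasts and 1 higher in endothelial than in mural cells. DESeq2 gave 1 lower in endothelial cells than in fibroblasts. Without a filter on low counts 3 were lower in mural cells than in fibroblasts, and 5 were higher and 1 lower in endothelial than in mural cells. With the shared barcodes kept, 1 was lower in endothelial than in mural cells, 0 were 2-fold lower in TSK cancer cells, and WT shares were 10.1% (endothelial), 4.79% (mural), 35.7% (fibroblast) and 12.7% (cancer). With up to 20% mitochondrial UMIs shares were 4.63% (TSK mural), 22.9% (TSK fibroblast) and 10.6% (WT cancer). The summed ratio was 0.77 (endothelial), 0.076 (mural) and -0.020 (cancer) with each cell weighted the same, 0.34, 0.012, 0.28 and -0.23 in the 4 classes relative to the median gene, -0.0054 in mural cells without the top cells, and 0.17 (fibroblast) and -0.13 (cancer) without the most abundant member. The cause of these changes was not tested. Nid2 in cancer cells gave no value with the upper limits. No paired analysis was possible because each genotype has 1 library.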

Other observations

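Lamc1 gave most of the members' UMIs in T and NK cells and in macrophages. In T and NK cells it gave 405 of the 447 members' UMIs in WT and 133 of 178 in TSK, at 131.2 and 192.9 CPM (UMIs per 1000000 UMIs of the class), while Lamb1, its partner chain, had 2 UMIs in WT. In macrophages it gave 138 of 242 and 222 of 376, at 42.1 and 78.3 CPM. Sparc gave 56 and 52 UMIs in macrophages, of which 1 cell held 57.1% in WT and 11.5% in TSK. In TSK neutrophils Lamc1 did not stand apart, with 24 of 124 UMIs beside 27 of Sparc, 19 each of Col4a1 and Col18a1 and 16 of Col4a2. A single one of these neutrophils held 41.1% of the 124 UMIs.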
